A study of Mus musculus with 7 samples.

Results

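DNA replication is carried out by complexes that are assembled on chromatin in a fixed order, and 46 genes encoding them were followed here in mouse regulatory T cells (Tregs). The genes were taken by symbol from the rows of the count table, and they cover the origin recognition complex (ORC), the loading factors CDC6 and CDT1 with geminin, the MCM2-7 helicase, its activators, the replicative polymerases, the sliding clamp PCNA and its loader, the single-strand binding protein RPA and the fork protection proteins. All 46 of the 51138 genes in the table were found, and all 46 were among the 15954 genes with enough counts to be tested. Each of the 46 also lay over the count minimum in each PBS library, so none was tested only because of its level after FP.

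FP is a fusion protein of interleukin-2 and its receptor subunit CD25, labelled as IL-2/CD25. Splenic Tregs were sorted 72 h after mice of the C57/BL6 strain received 20 ug of FP (FP Tregs, 4 samples) or 100 uL of PBS (PBS Tregs, 3 samples). Mice of both groups carried an RFP reporter of FoxP3, and the sort is described only as one for splenic Tregs, with no age, sex or number of mice per sample given. The labels call the replicates separate samples but do not tie each to its own mouse, so each p-value measures the spread between these samples, which may be partly technical.

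Before S phase, ORC marks origins of replication and, together with CDC6 and CDT1, loads rings of MCM2-7 onto the DNA, a step called licensing. Geminin binds CDT1 and blocks a further round of loading until the cell has divided. At the start of S phase the kinase CDC7-DBF4 and the factors MCM10, CDC45 and GINS turn the loaded rings into active helicases, and the polymerases, the PCNA clamp and RPA follow at the fork. Resting T cells are outside the cell cycle, and interleukin-2 is a growth factor for Tregs.

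Replication genes were higher in FP Tregs almost throughout. By edgeR's quasi-likelihood test with Benjamini-Hochberg adjustment over all genes tested, 42 of the 46 members rose and 0 fell, where 39.5% of all genes tested passed in either direction. DESeq2 and limma-voom also called 0 members lower, as did an unadjusted p under 0.05. Over all genes tested, 21.0% rose and 18.5% fell. Of all calls, 53.2% were higher, a share that was 33.2% with upper-quartile scaling and 28.6% with scaling by library size alone. The 4 members that did not pass, Orc2, Orc3, Orc4 and Orc5, all encode ORC subunits, and all 40 members outside ORC rose. Adjusted p ran from 2.27e-06 to 0.00769 among the 42. Their higher call held under all 15 alternative settings that were tried.

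The changes were large as well as frequent. The median log2 fold change of the 46 members was 1.61, a 3.05-fold difference, where the median over all genes tested was -0.05. At least 2-fold higher were 34 members, against 7.58% of all genes tested, at least 4-fold higher were 15 members, against 2.66%, and at least 8-fold higher were 6 members, against 1.56%. These 6 were Clspn, Mcm10, Cdc6, Cdc45, Gins2 and Pole, whose fitted folds ran from 8.14-fold (Pole) to 29.3-fold (Clspn). For 42 members the lowest FP library was above the highest PBS library, an arrangement seen for 23.2% of all genes tested. In bulk samples such as these, more cells expressing a gene and more RNA of it per cell cannot be told apart.

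**Figure D1:**
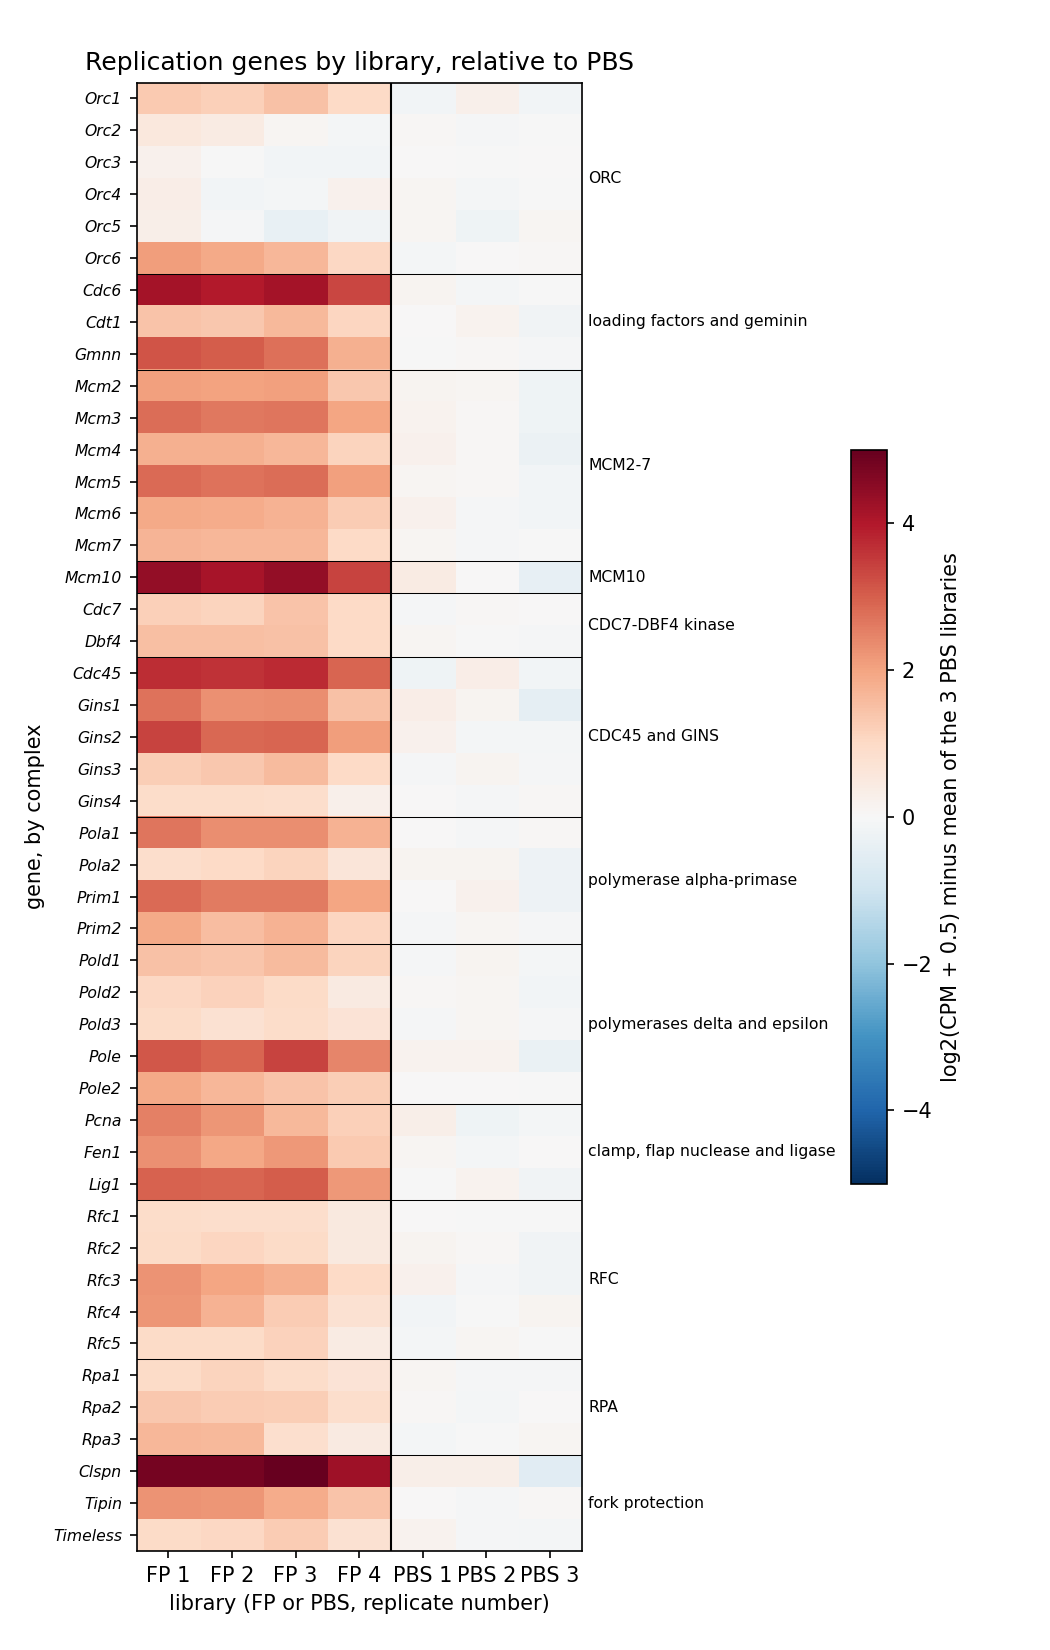
Level of each of the 46 members in each library, as log2(CPM + 0.5) relative to the mean of the 3 PBS libraries, with members in rows by complex and libraries in columns, FP left of PBS. Outside Orc2 to Orc5 every FP cell is above the PBS mean, and FP replicate 4 is the palest FP column.

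Levels are given below in CPM (counts scaled to a common library size with TMM factors), with the libraries in the order of their replicate numbers. The members together took 0.364%, 0.34%, 0.381% and 0.282% of all counts in FP Tregs, against 0.145%, 0.141% and 0.137% in PBS Tregs. The mean share was 0.342 ± 0.0432% in FP Tregs (SD, n = 4) and 0.141 ± 0.004% in PBS Tregs (SD, n = 3). Total counts ran from 9956509 to 13429878 per library.

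Markers of other cells also differed between the groups. The 6 tested macrophage and monocyte markers all fell, and the 7 listed summed to 15.4 to 61.4 CPM in FP Tregs, against 223 to 536 CPM in PBS Tregs. Csf1r averaged 13.1 ± 8.15 CPM in FP Tregs (SD, n = 4) and 201 ± 89.3 CPM in PBS Tregs (SD, n = 3), and Adgre1 averaged 2.16 ± 1.73 CPM in FP Tregs (SD, n = 4) and 51.8 ± 23.5 CPM in PBS Tregs (SD, n = 3). Both tested dendritic cell markers and the 1 tested NK cell marker, Eomes, also fell, and the lists summed to 10.8 to 15.3 CPM in FP Tregs against 22.2 to 30.7 CPM in PBS Tregs for dendritic cells, and to 0.967 to 1.56 CPM in FP Tregs against 4.03 to 5.96 CPM in PBS Tregs for NK cells. Of the germinal centre B cell markers, Mybl1 rose and averaged 12.0 ± 2.83 CPM in FP Tregs (SD, n = 4) and 1.53 ± 0.185 CPM in PBS Tregs (SD, n = 3). S1pr2, which did not pass, averaged 16.4 ± 1.05 CPM in FP Tregs (SD, n = 4) and 13.9 ± 0.752 CPM in PBS Tregs (SD, n = 3), and Gcsam averaged under 0.1 CPM in FP Tregs. Erythroid markers summed to 41.9 to 62.7 CPM in FP Tregs and to 35.8 to 50.4 CPM in PBS Tregs, and B cell markers to 17.3 to 28.4 CPM in FP Tregs and 16.6 to 29.7 CPM in PBS Tregs. Of 5 tested in each list, 1 rose, namely Gata1 at 34.9 ± 6.78 CPM in FP Tregs (SD, n = 4) and 22.3 ± 2.22 CPM in PBS Tregs (SD, n = 3), and Cd79b at 15.6 ± 4.26 CPM in FP Tregs (SD, n = 4) and 9.36 ± 1.38 CPM in PBS Tregs (SD, n = 3). The 1 tested progenitor marker, Kit, fell. Markers of progenitors, plasma cells and neutrophils each summed to at most 2.11 CPM in any library, with Tnfrsf17 and Elane at 0 throughout, and CD8 markers to at most 12.9 CPM. The Treg markers themselves summed to 5088.5 to 5901 CPM in FP Tregs, against 3162 to 3520.0 CPM in PBS Tregs, 4 of the 7 rose, and Foxp3 averaged 540.2 ± 52.9 CPM in FP Tregs (SD, n = 4) and 491 ± 7.24 CPM in PBS Tregs (SD, n = 3). The part of any of these cells in the replication results was not tested.

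ORC, the platform on which licensing starts, divided by subunit. Orc1 and Orc6 rose and the other 4 subunits did not pass the test. Orc1, the subunit whose level is known to follow the cell cycle in mammalian cells, had 15.0, 13.8, 16.5 and 11.8 CPM in FP Tregs, against 5.21, 6.89 and 5.17 CPM in PBS Tregs. The lowest FP value of Orc1 was above its highest PBS value, and its log2 fold change was 1.30 (standard error 0.19, adjusted p = 0.00045). Of the exon sequence of Orc1, 10.8% overlaps Gm12743 on the opposite strand. Orc6, the smallest subunit, had 41.6, 35.7, 30.2 and 19.5 CPM in FP Tregs, against 8.66, 9.53 and 9.63 CPM in PBS Tregs. All FP libraries were again above all PBS libraries, which gave a log2 fold change of 1.77 (standard error 0.24, adjusted p = 0.000346).

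The subunits that did not pass had levels close to those of the control. Orc3 had 106, 90.7, 83.9 and 82.6 CPM in FP Tregs, against 93.8, 89.4 and 91.9 CPM in PBS Tregs, with overlapping groups and a log2 fold change of -0.02 (standard error 0.10, adjusted p = 0.906). Orc4 had 88.6, 63.4, 64.9 and 79.8 CPM in FP Tregs, against 74.9, 65.0 and 68.4 CPM in PBS Tregs, also overlapping, and differed by a log2 value of 0.09 (standard error 0.13, adjusted p = 0.581). Orc5, with 45.4, 35.9, 28.9 and 33.2 CPM in FP Tregs, against 40.6, 32.3 and 40.02 CPM in PBS Tregs, differed by a log2 value of -0.07 (standard error 0.16, adjusted p = 0.742). Of the exon sequence of Orc2, 29.8% overlaps Nif3l1 on the opposite strand, so its counts are less certain. Orc2 was the nearest to a call among the 4. It had 41.6, 38.2, 30.1 and 26.8 CPM in FP Tregs, against 29.3, 27.5 and 28.4 CPM in PBS Tregs, so that FP replicate 4 lay below all 3 PBS libraries, and its log2 fold change was 0.26 (standard error 0.15, adjusted p = 0.199). Without FP replicate 4, Orc2 rose by 0.37 (adjusted p = 0.0418). These small differences moved with the scaling of libraries, and those of Orc2, Orc3 and Orc4 changed sign with at least 1 scaling. With scaling by library size alone, which put the median of all genes tested at -0.31, Orc2 was at -0.02 and Orc4 at -0.17. With that scaling Orc3 fell by 0.29 (adjusted p = 0.0279), whereas with RLE factors, another scaling, it was at 0.00, just across 0.

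All 3 genes of the loading step rose, and Cdc6 was among the largest changes of the 46. Cdc6 encodes the ATPase that joins ORC to recruit the helicase. It had 57.7, 50.4, 58.2 and 32.7 CPM in FP Tregs, against 3.09, 2.57 and 2.71 CPM in PBS Tregs, which left every PBS library at a small part of any FP library. Its log2 fold change was 4.15 (standard error 0.24, adjusted p = 2.27e-06). Cdt1, which brings MCM2-7 to ORC and CDC6, had 51.4, 49.1, 59.1 and 40.6 CPM in FP Tregs, against 19.3, 21.3 and 16.5 CPM in PBS Tregs, with no overlap and a log2 fold change of 1.39 (standard error 0.15, adjusted p = 8.47e-05).

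Gmnn encodes geminin, the inhibitor of CDT1. It had 51.4, 47.3, 38.5 and 19.4 CPM in FP Tregs, against 5.30, 5.64 and 5.17 CPM in PBS Tregs, and its log2 fold change was 2.86 (standard error 0.32, adjusted p = 0.00017). The FP libraries were uneven, with FP replicate 4 well below the other 3 but still above all PBS libraries. Per kilobase of exon, the ratio of Gmnn to Cdt1 was 2.14, 2.07, 1.4 and 1.02 in FP Tregs, against 0.587, 0.569 and 0.673 in PBS Tregs. The ratio was higher in every FP library than in any PBS library. Which of the pair stood higher in FP Tregs depended on the length scaling, since without it the ratio was 1.0, 0.964, 0.653 and 0.478 in the FP libraries.

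All 6 subunits of the MCM2-7 helicase, the ring that unwinds DNA ahead of the fork, rose, with a median log2 fold change of 1.80. Mcm5 and Mcm3 had the largest differences. Mcm5 had 231, 213, 226 and 137 CPM in FP Tregs, against 34.5, 33.1 and 29.2 CPM in PBS Tregs, for a log2 fold change of 2.64 (standard error 0.18, adjusted p = 6.6e-06). Mcm3 had 247, 222, 231 and 139.8 CPM in FP Tregs, against 40.4, 36.5 and 30.1 CPM in PBS Tregs, and changed by a log2 value of 2.56 (standard error 0.20, adjusted p = 1.93e-05). The remaining 4 subunits lay closer together. Mcm2, whose subunit also binds histones, had 186, 182, 186 and 113 CPM in FP Tregs, against 48.5, 47.4 and 38.5 CPM in PBS Tregs, with a log2 fold change of 1.89 (standard error 0.18, adjusted p = 5.4e-05). Mcm6 had 357, 344, 317 and 231 CPM in FP Tregs, against 108, 91.5 and 85.3 CPM in PBS Tregs, and changed by a log2 value of 1.72 (standard error 0.16, adjusted p = 3.34e-05). Mcm4, whose tail is phosphorylated by CDC7-DBF4, had 236, 233, 217 and 148 CPM in FP Tregs, against 79.3, 71.0 and 55.8 CPM in PBS Tregs, which gave a log2 fold change of 1.60 (standard error 0.18, adjusted p = 0.000134). In each of these the groups were far apart, and FP replicate 4 was the lowest FP library. The smallest difference of the ring was that of Mcm7, with 194, 190.1, 192 and 120.1 CPM in FP Tregs, against 63.4, 57.2 and 59.2 CPM in PBS Tregs, for a log2 fold change of 1.54 (standard error 0.16, adjusted p = 9.09e-05).

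**Figure D2:**
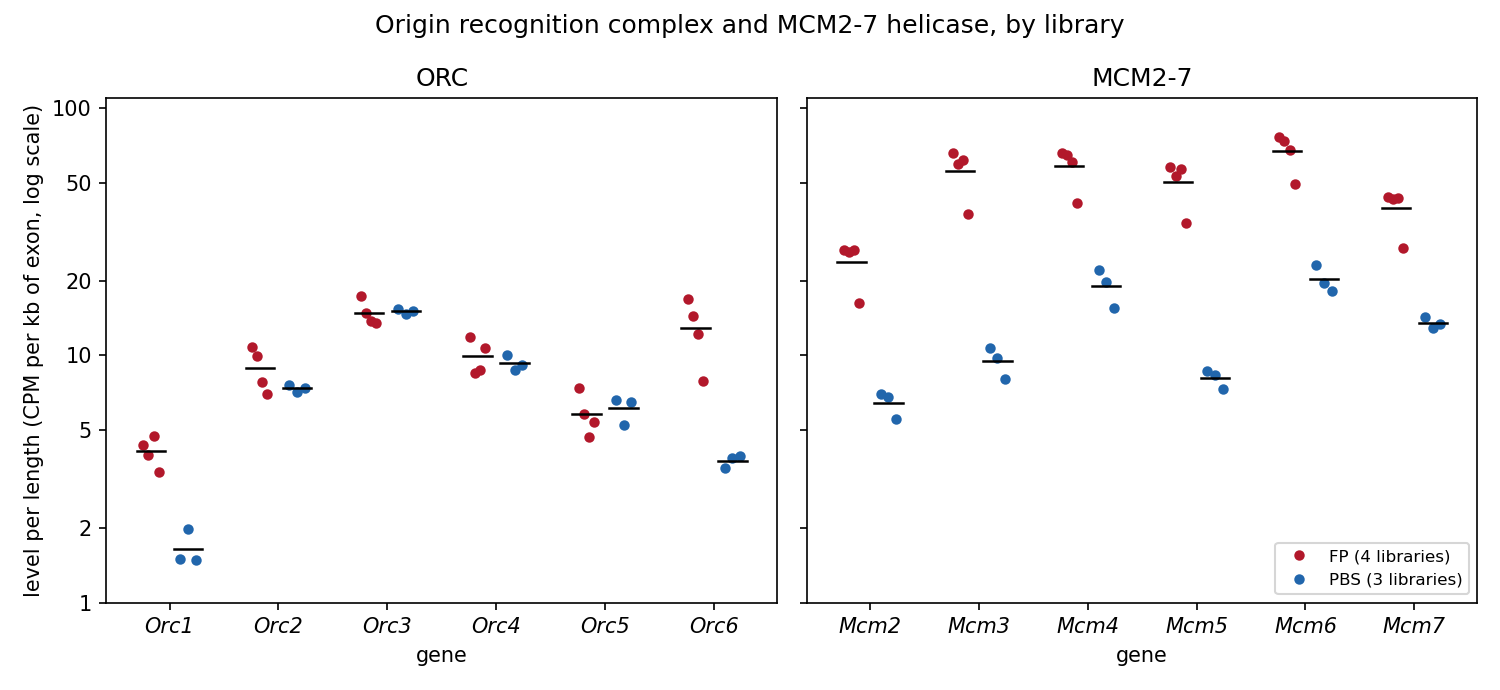
Level in CPM per kilobase of merged exon of the 6 ORC subunits and the 6 MCM2-7 subunits, on a logarithmic axis. Each point is a library, with FP left of PBS and a bar at the group mean. Orc2 to Orc5 overlap between groups, whereas Orc1, Orc6 and every MCM gene have all 4 FP points above all 3 PBS points.

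E2F transcription factors are known regulators of S phase genes, and several MCM and polymerase promoters are textbook targets, so the promoters were searched for their core words. The stretches below run from 170 to 11 bases before the RefSeq start (GRCm38, 160 bases each, gene strand) and are shown to set MCM and polymerase promoters, whose genes rose, beside ORC promoters of genes that did and did not. Capitals mark matches to the words TTTCCCGC, TTTCGCGC, TTTGCCGC and TTTGGCGC on either strand, and overlapping matches are run together.
Mcm5, chr8:75109339-75109498, plus strand: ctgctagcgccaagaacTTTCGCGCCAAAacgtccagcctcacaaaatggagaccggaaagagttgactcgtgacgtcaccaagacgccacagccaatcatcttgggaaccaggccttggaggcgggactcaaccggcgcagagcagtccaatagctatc
Mcm6, chr1:128359716-128359875, minus strand: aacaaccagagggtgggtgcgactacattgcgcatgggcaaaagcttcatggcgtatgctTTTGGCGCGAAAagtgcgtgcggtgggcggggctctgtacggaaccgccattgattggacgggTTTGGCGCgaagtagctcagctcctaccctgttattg
Pola1, chrX:93632166-93632325, minus strand: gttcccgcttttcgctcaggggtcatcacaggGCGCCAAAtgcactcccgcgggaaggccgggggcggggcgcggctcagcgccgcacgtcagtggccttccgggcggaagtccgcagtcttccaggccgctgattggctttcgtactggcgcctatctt
Orc1, chr4:108579284-108579443, plus strand: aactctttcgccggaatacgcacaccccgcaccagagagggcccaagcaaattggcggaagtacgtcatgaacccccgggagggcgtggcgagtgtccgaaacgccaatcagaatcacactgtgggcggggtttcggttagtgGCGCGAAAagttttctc
Orc3, chr4:34614953-34615112, minus strand: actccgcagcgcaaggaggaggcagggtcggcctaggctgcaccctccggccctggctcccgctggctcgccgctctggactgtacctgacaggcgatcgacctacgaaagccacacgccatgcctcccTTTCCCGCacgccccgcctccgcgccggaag
Orc2, chr1:58505120-58505279, minus strand: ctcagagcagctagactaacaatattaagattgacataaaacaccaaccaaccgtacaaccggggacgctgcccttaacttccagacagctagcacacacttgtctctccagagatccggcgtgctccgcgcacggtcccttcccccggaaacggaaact

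In these stretches Mcm6 had matches whose first bases lay 110, 106 and 47 bases before the start, of which the first pair overlap. Mcm5 had an overlapping pair at 153 and 149 bases, and Pola1 had 1 match at 138 bases. Orc1 had a match 27 bases before the start, and Orc3, which did not pass the test, had one at 41 bases. Orc2 held none of these words in the stretch shown, which says nothing of whether the factor binds there.

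RefSeq windows from 250 bases before to 50 bases after the start were matched for 37 of the 46 members, and not for Gmnn, Prim2, Tipin, Gins1, Mcm4, Gins2, Rfc2, Pole and Gins4. Genes with more than 1 window were counted once, as holding a word if any of their windows did. An E2F word was held by 16 of the 37 members (43.2%). The share was 2.6% among all 27025 genes with a RefSeq window, and 4.6% among the 10190 tested genes with a window. Among 2530 genes that rose, the share was 7.51%. The share with CCAAT, the binding word of NF-Y, on either strand was 59.5% in the members and 42.5% in the tested genes. The cell cycle words TTTGAA and TTCGAA were held by 24.3% of the members and by 17.04% of the tested genes. Of the MCM2-7 genes matched, 4 of 5 held an E2F word, and of the ORC genes 2 of 6 did. Besides the Mcm5, Mcm6 and Pola1 stretches shown, only Mcm7 of the matched MCM2-7 and polymerase genes held a word before the start. Mcm3, Pold1, Pold3 and Pole2 held words only after it, and Mcm2, Prim1, Pola2 and Pold2 held none. Members with a word had a median log2 fold change of 1.67, between -0.02 and 4.87, and those without had a median of 1.22, between -0.07 and 4.37. The ranges overlapped almost fully, and a word match is a description of letters, not a bound site.

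Genes that turn the loaded helicase on included some of the largest differences. Mcm10, needed for the start of unwinding, had 50.2, 41.5, 50.8 and 24.7 CPM in FP Tregs, against 2.74, 1.98 and 1.31 CPM in PBS Tregs. The PBS libraries held only a few CPM, and all FP libraries were far above them. Its log2 fold change was 4.37 (standard error 0.33, adjusted p = 1.28e-05). Cdc45, a partner of MCM2-7 in the active helicase, had 45.5, 43.2, 46.1 and 26.2 CPM in FP Tregs, against 2.56, 3.96 and 2.71 CPM in PBS Tregs, with a log2 fold change of 3.69 (standard error 0.26, adjusted p = 5.41e-06).

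The GINS complex, which completes the active helicase, rose in all 4 subunits but by unequal amounts. Gins2 had 20.1, 13.7, 14.2 and 7.92 CPM in FP Tregs, against 1.77, 1.32 and 1.31 CPM in PBS Tregs, which gave a log2 fold change of 3.24 (standard error 0.34, adjusted p = 7.71e-05). Of its exon sequence, 67.3% overlaps Gse1 on the opposite strand, and the strand setting of the counting is not given in the sources used here. Gins1 had 14.4, 10.5, 10.6 and 5.78 CPM in FP Tregs, against 2.30, 1.98 and 1.14 CPM in PBS Tregs, and changed by a log2 value of 2.49 (standard error 0.35, adjusted p = 0.000432). Gins3, with 14.8, 16.2, 19.2 and 12.7 CPM in FP Tregs, against 5.83, 6.67 and 5.78 CPM in PBS Tregs, changed by a log2 value of 1.36 (standard error 0.18, adjusted p = 0.000291). Gins4 had the smallest difference of the group, at 33.1, 33.7, 32.2 and 21.1 CPM in FP Tregs, against 17.7, 16.6 and 18.1 CPM in PBS Tregs, for a log2 fold change of 0.78 (standard error 0.17, adjusted p = 0.00489). None of the 4 overlapped between groups.

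CDC7-DBF4 is the kinase that phosphorylates loaded MCM2-7. Its catalytic subunit gene Cdc7 had 34.7, 32.8, 41.6 and 30.7 CPM in FP Tregs, against 14.5, 15.5 and 15.0 CPM in PBS Tregs, and its activating subunit gene Dbf4 had 66.1, 64.7, 64.5 and 46.4 CPM in FP Tregs, against 24.4, 22.4 and 21.5 CPM in PBS Tregs. Cdc7 rose by a log2 value of 1.22 (standard error 0.13, adjusted p = 9.61e-05) and Dbf4 by a log2 value of 1.41 (standard error 0.14, adjusted p = 5.47e-05).

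**Figure D3:**
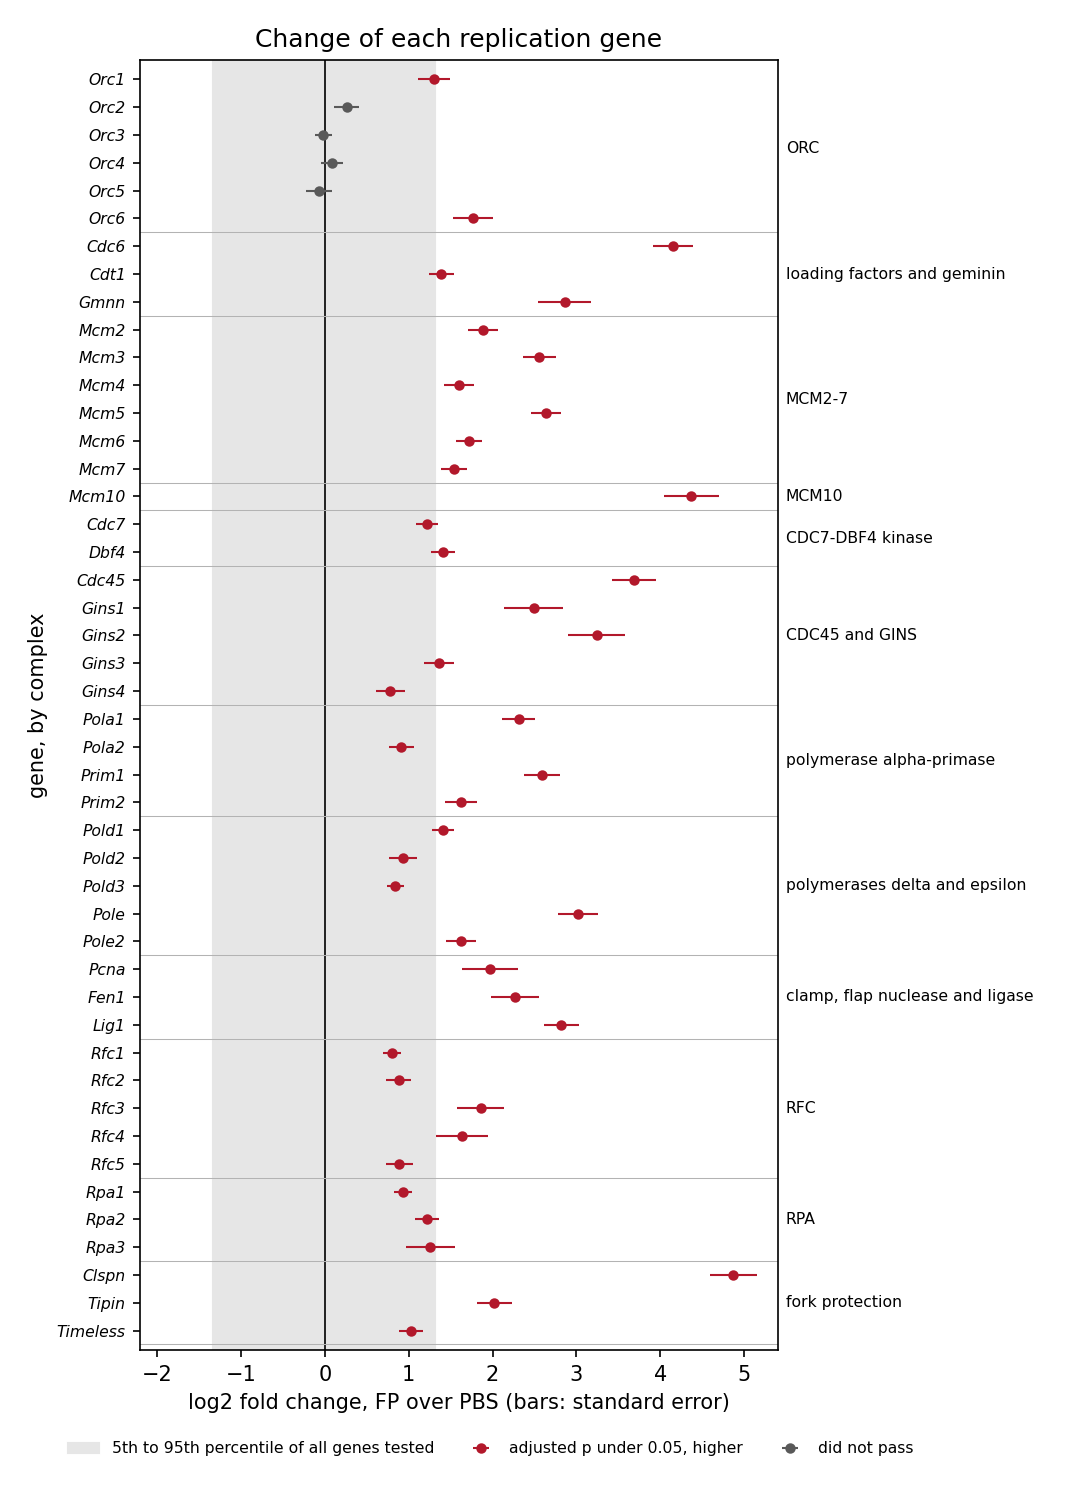
Log2 fold change of FP over PBS Tregs for each of the 46 members, grouped by complex, with bars of 1 standard error. Clspn (4.87), Mcm10 (4.37) and Cdc6 (4.15) lie farthest to the right, and Orc2 to Orc5 lie at or near 0.

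Polymerase alpha with its primase makes the RNA-DNA primers from which both strands are extended, and all 4 of its genes rose. Prim1, the catalytic primase subunit, had 64.0, 55.6, 55.6 and 35.7 CPM in FP Tregs, against 8.83, 10.0 and 7.27 CPM in PBS Tregs, with a log2 fold change of 2.59 (standard error 0.21, adjusted p = 1.63e-05). Pola1, the catalytic polymerase subunit whose promoter is shown above, had 165, 130.3, 130.0 and 86.1 CPM in FP Tregs, against 25.9, 24.6 and 26.7 CPM in PBS Tregs, a log2 change of 2.31 (standard error 0.20, adjusted p = 2.33e-05). The accessory subunits changed by less. Prim2, the large primase subunit, had 46.9, 37.1, 42.0 and 26.2 CPM in FP Tregs, against 11.8, 13.3 and 11.9 CPM in PBS Tregs, and changed by a log2 value of 1.62 (standard error 0.19, adjusted p = 0.000158). Pola2 had 46.5, 50.1, 54.5 and 38.7 CPM in FP Tregs, against 27.6, 27.3 and 20.8 CPM in PBS Tregs, and changed by a log2 value of 0.91 (standard error 0.15, adjusted p = 0.000985).

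Polymerase epsilon copies the leading strand and polymerase delta the lagging strand, and the 5 genes measured for them rose. Pole, the catalytic subunit of epsilon, had 132, 114, 159 and 82.9 CPM in FP Tregs, against 16.5, 16.9 and 11.5 CPM in PBS Tregs, which put it among the 6 members at least 8-fold higher. Its log2 fold change was 3.02 (standard error 0.24, adjusted p = 1.97e-05). Pole2, its partner subunit, had 32.5, 27.1, 23.3 and 20.3 CPM in FP Tregs, against 8.39, 8.50 and 8.14 CPM in PBS Tregs, a log2 change of 1.62 (standard error 0.18, adjusted p = 9.54e-05). The ratio of Pole2 to Pole per kilobase was 0.95, 0.917, 0.566 and 0.947 in FP Tregs, against 1.97, 1.95 and 2.75 in PBS Tregs.

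The delta subunits had smaller differences. Pold1, the catalytic one, had 82.2, 79.7, 91.1 and 64.8 CPM in FP Tregs, against 28.5, 33.1 and 28.0 CPM in PBS Tregs, which gave a log2 fold change of 1.41 (standard error 0.13, adjusted p = 3e-05). Pold2 had 35.0, 38.4, 33.3 and 23.5 CPM in FP Tregs, against 17.7, 18.3 and 15.3 CPM in PBS Tregs, a log2 change of 0.93 (standard error 0.17, adjusted p = 0.00202). Pold3 had 72.4, 63.8, 71.6 and 60.1 CPM in FP Tregs, against 36.0, 40.02 and 36.3 CPM in PBS Tregs, a log2 change of 0.84 (standard error 0.10, adjusted p = 0.000204). No delta gene overlapped between groups.

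PCNA is the ring that holds polymerases on the DNA, and Pcna had the highest level per kilobase of exon of all members in both groups (126 CPM per kilobase in FP Tregs and 32.2 in PBS Tregs). It had 443, 356, 238 and 174 CPM in FP Tregs, against 94.8, 66.3 and 70.7 CPM in PBS Tregs. The FP libraries spread widely, with FP replicate 1 far above FP replicates 3 and 4, yet all lay above the PBS libraries. The log2 fold change was 1.97 (standard error 0.33, adjusted p = 0.00234). Of its named pseudogenes, Pcna-ps2 held 73 counts over all libraries and Pcna-ps1 held 0.

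Lig1 and Fen1 finish lagging strand fragments, LIG1 by sealing nicks and FEN1 by cutting flaps. Lig1 had 173, 169, 185 and 101 CPM in FP Tregs, against 21.9, 25.0 and 19.8 CPM in PBS Tregs, with no overlap and a log2 fold change of 2.82 (standard error 0.21, adjusted p = 1.51e-05). Fen1 had 9.35, 7.37, 8.70 and 4.64 CPM in FP Tregs, against 1.68, 1.39 and 1.58 CPM in PBS Tregs, and changed by a log2 value of 2.27 (standard error 0.29, adjusted p = 0.000267). Fen1 counts are less certain, because 78.8% of its exon sequence overlaps Gm10143 on the opposite strand.

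The clamp loader RFC opens PCNA and places it on primed DNA, and all 5 of its genes rose. The large subunit gene Rfc1 had 121, 117, 117 and 89.1 CPM in FP Tregs, against 65.7, 63.8 and 62.4 CPM in PBS Tregs, for a log2 fold change of 0.80 (standard error 0.11, adjusted p = 0.000469). Among the small subunits, Rfc3 had 35.5, 29.1, 25.3 and 14.5 CPM in FP Tregs, against 8.30, 6.82 and 6.31 CPM in PBS Tregs, and changed by a log2 value of 1.86 (standard error 0.28, adjusted p = 0.000705), and Rfc4 had 44.1, 31.3, 22.5 and 16.05 CPM in FP Tregs, against 8.30, 9.02 and 10.2 CPM in PBS Tregs, and changed by a log2 value of 1.63 (standard error 0.31, adjusted p = 0.00301). Rfc2 and Rfc5 stayed near Rfc1 in size of change. Rfc2 had 60.4, 65.5, 60.9 and 43.3 CPM in FP Tregs, against 33.8, 32.4 and 27.4 CPM in PBS Tregs, a log2 change of 0.88 (standard error 0.15, adjusted p = 0.00128). Rfc5 had 48.7, 48.5, 55.7 and 33.3 CPM in FP Tregs, against 23.5, 26.7 and 24.9 CPM in PBS Tregs, a log2 change of 0.89 (standard error 0.16, adjusted p = 0.00193). Part of the exon sequence is shared with a gene on the opposite strand for Rfc2 (15.1%, Lat2), Rfc4 (12.7%, Eif4a2) and Rfc5 (10.7%, Wsb2).

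RPA coats single-stranded DNA at the fork. Its largest subunit gene, Rpa1, had 217, 243, 209 and 179.8 CPM in FP Tregs, against 119.6, 108 and 106 CPM in PBS Tregs, with a log2 fold change of 0.93 (standard error 0.11, adjusted p = 0.000163). Rpa2, whose product is phosphorylated under replication stress, had 45.0, 43.4, 41.9 and 32.7 CPM in FP Tregs, against 18.2, 16.5 and 17.9 CPM in PBS Tregs, a log2 change of 1.22 (standard error 0.14, adjusted p = 0.000106). Rpa3 had 31.9, 31.7, 18.0 and 13.7 CPM in FP Tregs, against 9.19, 9.82 and 10.7 CPM in PBS Tregs, where FP replicates 3 and 4 were well below FP replicates 1 and 2. Its log2 fold change, 1.26 (standard error 0.29, adjusted p = 0.00769), had the largest adjusted p of the 42 members that rose.

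Fork protection genes ran from a modest change to the largest of the 46. Clspn encodes claspin, which passes the signal of a stalled fork from ATR to CHK1 and supports fork speed. It had 104, 103, 127 and 71.2 CPM in FP Tregs, against 4.06, 4.18 and 2.01 CPM in PBS Tregs. PBS libraries held only a few CPM and every FP library was far above them, which gave a log2 fold change of 4.87 (standard error 0.28, adjusted p = 3.14e-06). Tipin had 57.3, 55.7, 43.1 and 31.6 CPM in FP Tregs, against 11.7, 10.9 and 12.0 CPM in PBS Tregs, a log2 change of 2.02 (standard error 0.21, adjusted p = 6.91e-05). Timeless, the partner of TIPIN, had 51.2, 53.3, 62.7 and 43.9 CPM in FP Tregs, against 28.9, 24.6 and 24.2 CPM in PBS Tregs, a log2 change of 1.03 (standard error 0.14, adjusted p = 0.000303). Per kilobase, Clspn stood at 1.73, 1.65, 1.72 and 1.38 times Timeless in FP Tregs, against 0.12, 0.145 and 0.0709 times in PBS Tregs.

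Levels of the members were compared with each other as CPM per kilobase of merged exon. On that scale the members ran from 3.1 to 126 in FP Tregs, a ratio of 40.6, and from 0.261 to 32.2 in PBS Tregs, a ratio of 123. The lowest in FP Tregs was Fen1, whose counts are less certain because of the overlap given above, so the FP ratio is less certain too. Within MCM2-7 the highest subunit was 2.79 times the lowest in FP Tregs and 3.16 times in PBS Tregs, with Mcm6 (66.9 CPM per kilobase in FP Tregs and 20.4 in PBS Tregs) at the top and Mcm2 (24.0 CPM per kilobase in FP Tregs and 6.44 in PBS Tregs) at the bottom in both. The order between them differed: Mcm3 and Mcm5 ranked above Mcm7 in FP Tregs and below it in PBS Tregs. In ORC the highest subunit, Orc3, was 3.63 times the lowest, Orc1, in FP Tregs and 9.10 times in PBS Tregs. Orc6 stood next to the top in FP Tregs and next to the bottom in PBS Tregs on this scale, whereas without length scaling the order of the 6 subunits was the same in both groups, with Orc6 next to the bottom.

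In some other complexes the highest and lowest subunits were also closer in FP Tregs. For CDC45 with GINS the highest gene was 6.53 times the lowest in FP Tregs and 36.1 times in PBS Tregs. The lowest in both was Gins2, whose level is less certain because of its overlap with Gse1. For polymerases delta and epsilon the ratios were 1.92 in FP Tregs and 6.71 in PBS Tregs, and for RFC the ratio was 2.57 in FP Tregs and 5.37 in PBS Tregs. Polymerase alpha with primase went the other way, at 2.54 in FP Tregs and 1.46 in PBS Tregs. These ratios were not tested, and without length scaling the ratio for polymerases delta and epsilon was 4.74 in FP Tregs and 4.49 in PBS Tregs. Unscaled, it was 3.9 in FP Tregs and 11.9 in PBS Tregs for CDC45 with GINS, and 4.26 in FP Tregs and 8.96 in PBS Tregs for RFC. For polymerase alpha with primase it was 3.36 in FP Tregs and 2.95 in PBS Tregs. The 23 members with the lower PBS levels per kilobase had a median log2 fold change of 2.27, and the other 23 had a median of 1.26. Both quantities use the same PBS libraries, so this is a description only.

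The 4 FP libraries were not alike. In TMM-scaled CPM, FP replicate 4 was the lowest FP library for 44 of the 46 members, at a median of -0.65 on the log2 scale relative to the mean of the other 3. Both values depend on the TMM factors, which were 0.839, 0.849, 0.971 and 1.05 for FP replicates 1 to 4. As a share of all counts, which does not use these factors, the members took 0.282% in FP replicate 4, against 0.34% to 0.381% in the other 3. The median difference of the members from the PBS mean was 1.84, 1.65, 1.62 and 1.05 on the log2 scale in FP replicates 1 to 4. The corresponding values of the single PBS libraries were 0.05, 0.03 and -0.07. Without FP replicate 4, the median log2 fold change of the members was 1.73 and 43 rose, with Orc2 added.

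A further 8 lists place these genes among other parts of replication. Of 59 further genes tested, 34 passed the test, where 39.5% of all genes tested passed, 21.0% higher and 18.5% lower. Among regulators of origins, 5 of 8 rose, from Dtl, which marks CDT1 for destruction on PCNA (log2 fold change 3.21, standard error 0.20, adjusted p = 3.51e-06), to Mcm9, a relative of the helicase subunits (log2 fold change 0.03, standard error 0.10, adjusted p = 0.846). Of the 5, Mcmbp lost its call without FP replicate 3 or PBS replicate 1 or 2 (adjusted p from 0.0522 to 0.117), and Lrwd1 without PBS replicate 3 (adjusted p = 0.0694), both named with their values known. Among factors of helicase activation, 5 of 6 rose. Ticrr, which brings CDC45 to MCM2-7, changed by a log2 value of 3.72 (standard error 0.25, adjusted p = 5.11e-06), and Donson by 0.04 (standard error 0.10, adjusted p = 0.786). Of the polymerase accessories and primer removal enzymes 8 of 9 rose, led by the helicase gene Pif1 (log2 fold change 5.21, standard error 0.36, adjusted p = 5e-06), and the lowest was Rnaseh1 (log2 fold change -0.20, standard error 0.13, adjusted p = 0.246). Among the 8, Rnaseh2c (adjusted p = 0.0435, chosen with its value known) lost its call with limma-voom (adjusted p = 0.11) and without any library but FP replicate 4 (adjusted p from 0.0765 to 0.13).

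Among the alternative clamp loaders 3 of 5 rose, from Dscc1 of the cohesion loader (log2 fold change 3.24, standard error 0.35, adjusted p = 8.26e-05) to Rad17 of the checkpoint loader, which did not pass (log2 fold change 0.05, standard error 0.12, adjusted p = 0.778). Checkpoint genes were mixed. Of 6, 3 rose, Chek1 the most at a log2 fold change of 3.01 (standard error 0.25, adjusted p = 1.76e-05), whereas Atr, the kinase upstream of CHK1, fell (log2 fold change -0.49, standard error 0.11, adjusted p = 0.00608). Hus1, the least certain of the 3 (adjusted p = 0.0461, chosen with its value known), lost its call in 9 of the 15 alternatives, among them limma-voom and leaving out any of FP replicates 1 to 3 or PBS replicates 2 and 3, with adjusted p from 0.0522 to 0.531. Atrip also fell without FP replicate 4 (adjusted p = 0.0388), which made 2 checkpoint genes lower. Of 5 topoisomerase genes 2 rose, with Top2a, which untangles sister chromatids, at a log2 fold change of 4.79 (standard error 0.28, adjusted p = 3.51e-06), and Top3b fell (log2 fold change -0.47, standard error 0.09, adjusted p = 0.00202).

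The last lists hold the polymerases of lesion bypass and repair and the genes of mitochondrial DNA replication. Of 12 translesion and repair polymerase genes, Polq (log2 fold change 2.60, standard error 0.17, adjusted p = 3.87e-06) and Polh (log2 fold change 1.31, standard error 0.15, adjusted p = 0.000129) rose, and Poln (log2 fold change -0.85, standard error 0.27, adjusted p = 0.0284) and Rev1 (log2 fold change -0.50, standard error 0.11, adjusted p = 0.00473) fell. Poln lost its call without FP replicate 2 or 3 or without PBS replicate 1 or 3, with adjusted p from 0.0554 to 0.118. In mitochondrial DNA replication 0 of 8 genes rose by edgeR, DESeq2 or limma-voom, and 1 (Tfam, chosen with its value known) did at an unadjusted p under 0.05. By edgeR Tfam rose with no filter (adjusted p = 0.0491), with the replicate block (0.00875), without FP replicate 4 (0.0189) and without PBS replicate 1 (0.0361). The highest was Mgme1 (log2 fold change 0.31, standard error 0.27, adjusted p = 0.397). The helicase gene Twnk fell (log2 fold change -0.67, standard error 0.14, adjusted p = 0.00329), as did Top1mt (log2 fold change -0.63, standard error 0.18, adjusted p = 0.0195), a gene chosen with its value known, whose call was lost without PBS replicate 2 (adjusted p = 0.0932) or 3 (adjusted p = 0.0612). With scaling by library size alone or by upper quartile, 5 mitochondrial genes fell and 3 origin regulators rose. Library size alone also gave 1 topoisomerase gene that rose, 3 that fell, and 5 translesion and repair polymerase genes that fell.

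**Figure D4:**
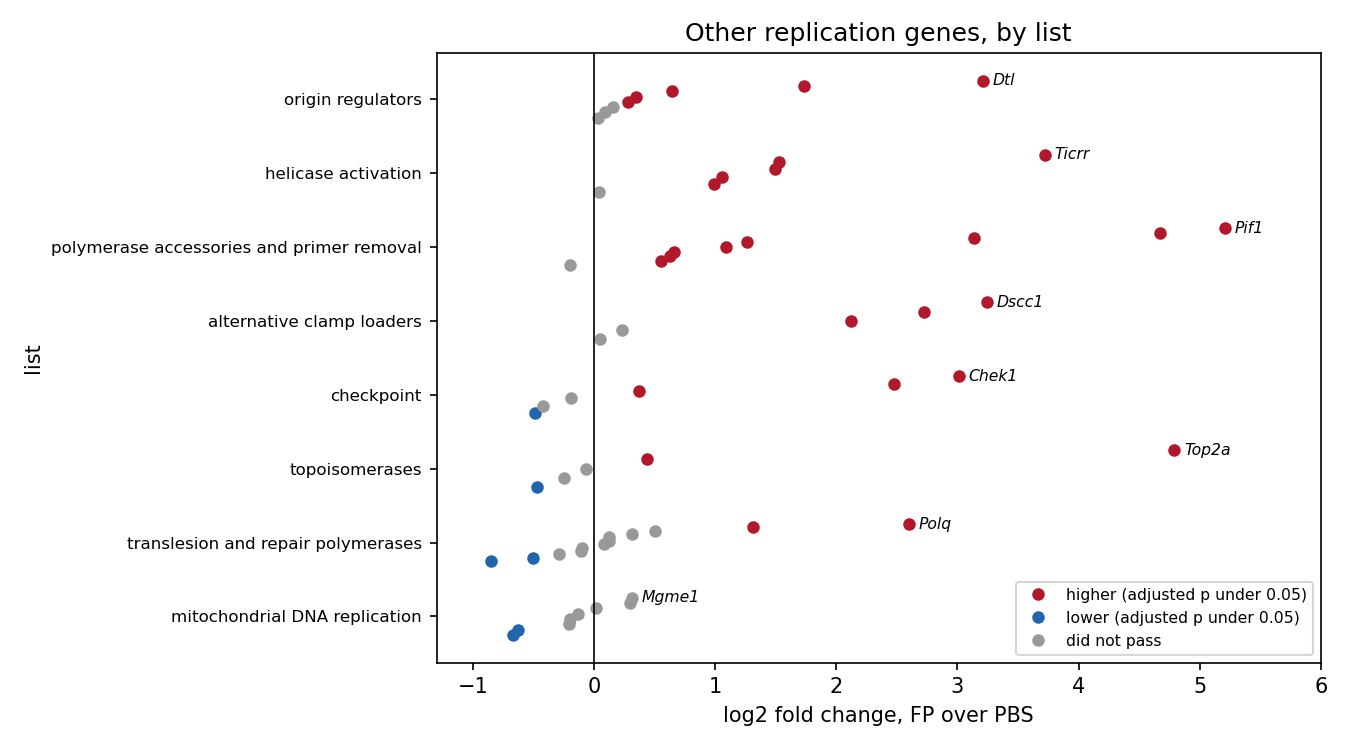
Log2 fold change of FP over PBS Tregs for every tested gene of the 8 further replication lists, one row per list, in red where a gene rose, blue where it fell and grey where it did not pass. Helicase activation, polymerase accessories and clamp loaders lie mostly to the right of 0, and mitochondrial DNA replication lies at or left of 0 except for a few genes that did not pass.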

How the data were processed

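RNA from sorted splenic Tregs (4 FP and 3 PBS samples) was sequenced after removal of ribosomal RNA, per the labels' protocols. The authors deposited 1 table of raw counts, made by alignment with STAR 2.5.0b and counting with featureCounts 1.5.0, per the submitters' processing notes, on GENCODE M13 genes of GRCm38, per the series' design text. Whether counting used strand, and how reads with several genomic matches were handled, is not given in the sources used here, so overlapping genes may share counts.

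Of 51138 rows, 50376 had a symbol. The counts were tested with edgeR 4.0.16 in R 4.3.3 (TMM factors, filterByExpr with a count minimum of 10, robust quasi-likelihood fit, FP against PBS), with Benjamini-Hochberg adjustment over 15954 genes and a threshold of 0.05. All adjusted p-values come from this test unless another tool is named, and standard errors were taken from its F statistic. The script was run on simulated counts as a check of the code only. CPM use TMM-scaled library sizes, and levels per kilobase use merged exon lengths of GENCODE M21. A count of 0 allows up to 3 counts, 0.223 to 0.301 CPM in these libraries, for counting error only. Promoter windows came from RefSeq (GRCm38).

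Alternatives were DESeq2 1.42.0, limma-voom (limma 3.58.1), 3 other scalings, 2 other filters, the replicate number as a block, and leaving out each library. The 46 members, the further lists and the markers were chosen with earlier results of these data known. Named were all members, the genes with the highest and lowest change of each further list, genes of it that passed against its majority, the most abundant markers and defining markers at 0. A marker of 1 list is not reported here.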

Additional observations from a re-analysis of the deposited data

Results flagged for a closer look

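For 6 of the 46 members, 1 FP library stood apart from the other 3 by Dixon's test, in which the gap to the nearest library is divided by the range of the 4 and compared with the 95% critical value. Chance flags about 5 percent of groups. In every case the library was FP replicate 4, and it was low. The ratio was 0.94 for Mcm2, 0.943 for Mcm7, 0.917 for Dbf4, 0.854 for Cdc45, 0.88 for Gins4 and 0.863 for Rfc1. The 6 values share that library and are not independent. They also rest on TMM-scaled CPM, with factors of 0.839, 0.849, 0.971 and 1.05 for FP replicates 1 to 4. The flags depend on that scaling, and none is given here for library size alone. All 6 genes remained higher in FP Tregs without FP replicate 4, and why it is lower was not tested.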

How the results depend on the processing

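The higher call of 42 members was the same in all 15 alternatives, and fitted folds of members moved by at most 1.24 times. Among the 690 pairs of a member and an alternative, the call or direction changed in 15, all of them for Orc2 to Orc5. Orc2 was at -0.02 with library size alone. Orc3 was at 0.02 with DESeq2, 0.00 with RLE factors, 0.00 without a filter, and from -0.09 to 0.03 with a library left out (above 0 without FP replicate 3 or 4 or PBS replicate 1), and Orc3 fell by 0.29 with library size alone. Orc4 was at -0.17 with library size alone and -0.10 with upper-quartile factors. Orc5 ran from -0.19 to 0.02 with a library left out (above 0 without FP replicate 3 or PBS replicate 1). The ORC median was -0.10 with library size alone and -0.03 with upper-quartile factors. These scalings put the median of all genes at -0.31 (library size) and -0.25 (upper quartile), against -0.05, so that 1 member was called lower with library size alone. They called 2023 genes higher and 5046 lower (library size) and 2399 higher and 4823 lower (upper quartile), against 3355 and 2953.

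Leaving out a library gave 4088 (without PBS replicate 3) to 7277 (without FP replicate 4) genes called, against 6308, and 1774 (without PBS replicate 3) and 1869 (without PBS replicate 2) called lower. The number of members that rose was 42 or 43. The median of the members ran from 1.32 (library size) to 1.73 (without FP replicate 4). In the further lists, 29 to 39 of 59 genes were called across the libraries left out. The labels do not say whether replicate numbers pair the samples, and they were not treated as pairs: correlations of same-numbered libraries were 0.219, 0.0702 and 0.0966, within the -0.329 to 0.394 of unlike numbers. With the replicate block 7870 genes were called, 43 members rose, with Orc2 added at 0.36 (adjusted p = 0.0252), Orc3 was at 0.02 and 39 further genes were called. No PBS library carries the number of FP replicate 4, so the block fitted that library by itself. The block result is therefore not separate from the one without FP replicate 4. The cause of the other shifts was not tested. With 7 libraries and no record of separate mice, small differences such as those of Orc2 to Orc5 could not be resolved.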

Other observations

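Of the further replication genes, Pold4, the smallest subunit gene of polymerase delta, and Rad9a, of the checkpoint clamp, were listed at 0 in all 7 libraries. They were not tested, and neither was Skp2, which had too few counts. Overlaps with other genes were looked up for the members only, so the zeros of Pold4 and Rad9a do not show that their RNA was absent.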
